A study of Mus musculus with 12 samples.

Results

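Toll-like receptors are the transmembrane sensors with which cells detect microbial molecules. The transcripts described here were those of 9 receptors other than Tlr4, the receptor for lipopolysaccharide, and of Unc93b1, the protein that escorts the nucleic acid-sensing receptors out of the endoplasmic reticulum. The 10 members (Tlr1, Tlr2, Tlr3, Tlr5, Tlr6, Tlr7, Tlr8, Tlr9, Tlr13 and Unc93b1) were chosen by gene symbol, through the Ensembl IDs of the count tables. All 10 had a row among the 49585 gene IDs of the liver tables and the 55401 of the macrophage tables.

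Poly(A) RNA of C57BL/6 mice was sequenced in 12 libraries, 3 in each of 4 groups. The liver groups were untreated mice, labelled WT in the sample titles, and mice given LPS (bacterial lipopolysaccharide) for 2 h. The other groups were macrophages from the peritoneum, the lining of the belly, that received a lentivirus for 72 h and then LPS for 2 h. This virus carried a short hairpin RNA, either a control (shNC) or one directed at Gm26917, a long non-coding RNA (shGm26917), so every macrophage library came from LPS-treated, virus-treated cells. No macrophage group without LPS or without virus was analysed here. The level of Gm26917 in the macrophages was not analysed here, so the effect of the hairpin on its target was not checked. The labels do not say whether replicates were separate animals or cultures, and p-values measure only the spread between these samples, which may be technical.

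As background, Tlr2 pairs with Tlr1 or Tlr6 at the cell surface to bind bacterial lipopeptides, and Tlr5 binds flagellin. Tlr3, Tlr7, Tlr8, Tlr9 and Tlr13 signal from endosomes, where Tlr3 detects double-stranded RNA, Tlr7 and Tlr8 RNA degradation products, Tlr9 unmethylated CpG DNA and Tlr13 bacterial ribosomal RNA. Tlr3 signals through the adaptor Ticam1 (TRIF) and the others through Myd88. In liver these receptors are known from Kupffer cells, sinusoidal endothelium, dendritic cells and hepatocytes.

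The liver libraries held 17322800 to 20914000 counts each and those of the macrophages 15605300 to 18062900 (rounded to 6 digits). Levels are in CPM, counts relative to library sizes that were scaled by the trimmed mean of M-values (TMM). In liver the hepatocyte gene Alb stood at 36800 to 92500 CPM. In macrophages Adgre1, which encodes the macrophage antigen F4/80, stood at 996 to 2090 CPM and Gata6, the regulator of large peritoneal macrophages, at 15.7 to 40.8 CPM, while the Kupffer cell gene Clec4f had 0 counts. shNC replicate 2 stood apart from the other shNC libraries. Its root mean square difference from them over all tested genes was 0.882 and 0.937 on the log2 scale. This compares with 0.495 between the other shNC libraries and 0.450 to 0.479 among shGm26917 libraries. The other shNC libraries differed from the shGm26917 libraries by 0.940 to 1.238, and shNC replicate 2 did so by 1.094 to 1.184. Its summed mast cell markers were 60.9 CPM against 10.5 and 3.71 CPM in the other shNC libraries, and Irf7, an interferon-induced transcription factor, stood at 3150 CPM against 205 and 461 CPM. The test of each member in macrophages is therefore given with and without it. For other genes the value without it is given where the call was lost or a printed fold moved by more than 1.5 times. Mitochondrial genes took 5.06% to 5.45% of counts in untreated and 6.21% to 9.65% in LPS livers, with LPS replicate 1 the highest. They took 0.523% to 0.839% in shNC and 0.927% to 0.976% in shGm26917 libraries. The part of this share in the results was not tested.

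In untreated liver the receptors were scarce, and LPS changed both their total and their make-up. Tlr2 and Tlr3 rose most, Unc93b1, Tlr6 and Tlr7 rose by smaller amounts, and Tlr5 fell. In edgeR (quasi-likelihood test, p adjusted over all genes by Benjamini-Hochberg), 5 of the 9 members tested were called higher (adjusted p under 0.05) and 1 lower, and Tlr9 had too few counts for the test. Of all 13869 genes tested, 45.3% were called, 23.3% higher and 22.1% lower. The library values of the groups did not overlap for 7 of the 9 members, against 57.8% of all tested genes. In bulk tissue, fewer cells of a type and less RNA per cell cannot be told apart.

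Tlr2, the lipopeptide receptor, stood at 1.96, 1.95 and 1.43 CPM in the untreated livers and at 404, 437 and 430 CPM in the LPS livers (replicates 1, 2 and 3). The groups lay far apart, and the spread within each was small. The rise was 237-fold, a log2 fold change of 7.89 (SE 0.27, adjusted p = 1.42e-06). Its partners moved much less. Tlr6 stood at 1.05, 0.788 and 0.304 CPM in untreated livers and at 3.07, 1.5 and 2.78 CPM with LPS, every LPS value above every untreated one. It rose 3.42-fold (log2 fold change 1.77, SE 0.50, adjusted p = 0.0186). That call was lost without LPS replicate 1 (adjusted p = 0.0591) or LPS replicate 3 (0.0584) and with library totals in place of TMM (0.0572). Tlr1 stood at 1.23, 1.90 and 0.738 CPM untreated and 1.63, 2.72 and 1.58 CPM with LPS. These groups overlapped, and Tlr1 did not pass the test (log2 fold change 0.62, SE 0.43, adjusted p = 0.269).

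Tlr1 and Tlr6 lie side by side on the minus strand of chromosome 5, 18467 bases apart (GRCm38, Tlr1 at 64924679 to 64933563 and Tlr6 at 64952031 to 64960097). Of the distinct stretches of 50 bases in their annotated transcripts, 454 were shared, 13.6% of those of Tlr1 and 12.3% of those of Tlr6. No other pair among the toll-like receptor and Unc93b1 transcripts shared such a stretch. The sources used here do not say how reads that fit both genes were counted, so the values of this pair are uncertain to that extent.

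Tlr3, the receptor for double-stranded RNA, was the other strong riser. It stood at 4.78, 4.40 and 6.30 CPM in untreated livers and at 152, 172 and 171 CPM with LPS, with no overlap. It rose 31.9-fold (log2 fold change 5.0, SE 0.23, adjusted p = 2.98e-06). An antisense transcript, Gm45542, overlaps 381 exon bases of Tlr3. That transcript had 0 counts in 11 libraries and 2 in the last, shGm26917 replicate 1.

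Unc93b1, on chromosome 19, rose 2.50-fold (log2 fold change 1.32, SE 0.22, adjusted p = 0.00169). Untreated livers gave 32.9, 39.0 and 39.3 CPM, and LPS livers gave 120, 75.8 and 81.6 CPM. The groups did not overlap, and LPS replicate 1, the library with the highest mitochondrial share, was also the highest here. Without it the log2 fold change was 1.10. Tlr7, a sensor of single-stranded RNA, stood at 1.68, 1.34 and 1.13 CPM untreated and 3.57, 4.38 and 3.67 CPM with LPS. The groups did not overlap, and Tlr7 rose 2.79-fold (log2 fold change 1.48, SE 0.29, adjusted p = 0.00388).

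Tlr8, which lies 40599 bases from Tlr7 on the X chromosome, did not show the same direction. It stood at 1.68, 0.973 and 0.912 CPM untreated and at 0.439, 0.388 and 0.823 CPM with LPS, all LPS values below all untreated ones (log2 fold change -1.11, SE 0.47, adjusted p = 0.0815). Tlr13 stood at 2.23, 1.67 and 1.30 CPM untreated and 0.752, 1.39 and 1.14 CPM with LPS, with overlap (log2 fold change -0.66, SE 0.38, adjusted p = 0.191). Scaling by library totals shifted the median of all genes by -0.43 on the log2 scale, and on that scaling both were called lower (-1.56 for Tlr8 and -1.10 for Tlr13, adjusted p = 0.0272 and 0.0476). Tlr9 had 13, 2 and 12 counts in untreated and 3, 9 and 5 in LPS libraries. The ratio of LPS to untreated was 0.842, with a 95% interval of 0.431 to 1.6 that covers counting error only, so no difference was detectable at this depth.

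Tlr5, the flagellin receptor, was the 1 member that edgeR called lower when liver was fitted alone with TMM scaling. It stood at 4.78, 2.18 and 8.03 CPM in untreated livers and at 1.32, 1.5 and 1.65 CPM with LPS. The untreated libraries spread widely, yet the lowest lay above every LPS value. It was 3.35-fold lower (log2 fold change -1.75, SE 0.46, adjusted p = 0.0144), a call lost without LPS replicate 1 (adjusted p = 0.053). Tlr12, which like Tlr5 recognises a protein ligand (profilin of Toxoplasma), stood at 21.9, 6.54 and 13.2 CPM untreated and 2.57, 3.33 and 3.35 CPM with LPS. It fell too (log2 fold change -2.17, SE 0.41, adjusted p = 0.00327). Tlr11, with 16 counts in untreated and 3 in LPS libraries, was too sparse to test. Tlr4 itself stood at 2.55, 1.25 and 1.39 CPM untreated and 1.94, 1.72 and 1.84 CPM with LPS, and did not pass the test (log2 fold change 0.08, SE 0.37, adjusted p = 0.871).

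**Figure D1:**
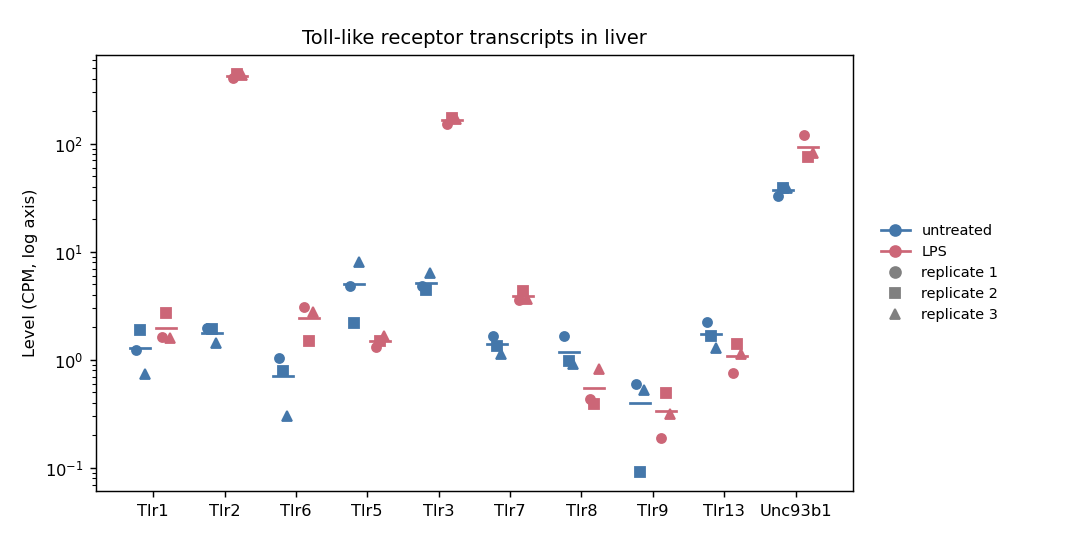
Level of each member in the 6 liver libraries, in CPM on a log axis. Symbols mark the replicates and bars the means of 3 libraries. Tlr2 (1.43 to 1.96 CPM untreated, 404 to 437 CPM with LPS) and Tlr3 separate most, and Tlr5 is lower with LPS.

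Among markers of other cells, those of neutrophils changed most. The summed level of 11 neutrophil markers was 2.64 to 8.25 CPM in untreated and 226 to 316 CPM in LPS livers, with all 10 tested markers higher, and Ly6g at 0 counts in every untreated library. Of 10 Kupffer cell markers, 1 was higher and 1 lower, and their sum ranged from 293 to 368 CPM untreated and from 170 to 433 CPM with LPS. The lowest sum was that of LPS replicate 1, where Clec4f stood at 29.5 CPM against 106 and 86.3 CPM in the other LPS livers. Of 9 sinusoidal endothelial markers, 3 were higher and 5 lower (145 to 225 CPM untreated, 170 to 193 CPM with LPS). Of 6 genes tested from the peritoneal macrophage list, 3 were higher (Gata6, Selp and Prg4), while Adgre1, Icam2 and Timd4 were not called. The list summed to 43.1 to 86.1 CPM untreated and 239 to 288 CPM with LPS. Prg4 alone averaged 28.5 CPM untreated and 156 CPM with LPS. Of 9 monocyte and macrophage markers 4 were higher and 2 lower, and of 10 T and NK cell markers 2 were higher. B cell markers had 1 of 6 lower, and neither of the 2 plasmacytoid dendritic cell markers tested was called. The part of cell make-up in the receptor changes was not tested.

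The stretches before a RefSeq start of 4 of the liver genes that were called are shown because the data bear on their RNA output. RefSeq's promoter table (GRCm38.p6) held 8 of the 10 members. Each window comprised the 250 bases before the annotated start, and only bases outside annotated exons are printed, 5′ to 3′ on the gene's strand. Capitals mark matches, on either strand, to a kappaB form (3 G, then 5 bases of any kind, then 2 C) or to an interferon-stimulated response element form (GAAA, 2 bases of any kind, GAAA). Tlr2 is at chr3:83841768-83841858 (minus strand), Tlr3 at chr8:45410381-45410452 (minus), Tlr6 at chr5:64959167-64959416 (minus, the first of 2 windows) and Tlr5 at chr1:182954538-182954787 (plus).
Tlr2: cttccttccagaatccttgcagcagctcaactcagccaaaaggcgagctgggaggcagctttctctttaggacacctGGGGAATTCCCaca
Tlr3: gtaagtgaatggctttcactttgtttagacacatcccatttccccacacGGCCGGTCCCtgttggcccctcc
Tlr6: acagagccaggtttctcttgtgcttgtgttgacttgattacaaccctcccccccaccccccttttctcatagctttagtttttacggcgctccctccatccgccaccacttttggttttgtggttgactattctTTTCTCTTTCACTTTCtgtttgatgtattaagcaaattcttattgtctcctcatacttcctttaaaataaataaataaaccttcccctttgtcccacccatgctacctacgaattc
Tlr5: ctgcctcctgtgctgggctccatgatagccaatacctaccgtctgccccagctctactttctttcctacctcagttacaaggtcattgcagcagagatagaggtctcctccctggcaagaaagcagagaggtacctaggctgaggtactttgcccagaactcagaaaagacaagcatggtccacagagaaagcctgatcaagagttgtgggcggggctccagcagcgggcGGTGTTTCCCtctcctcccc

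The Tlr2 window held 2 kappaB matches that overlap in all but 1 base each, from 173 to 163 bases upstream. The Tlr3 window held 1 at 23 to 14 bases upstream and another at 211 to 202, which lies in an annotated exon and is not printed. The Tlr5 window held 1 at 20 to 11. The second Tlr6 window, not printed, held 1 at 99 to 90. A match of this form occurred in 45.8% of all 32851 windows, so it sets none of these genes apart. The printed Tlr6 window held 2 overlapping matches to the interferon element form, from 116 to 101 bases upstream. This form was found in 2.98% of all windows. The window of Tlr11, a gene too sparse to test, held a match to it as well. The printed Tlr3 and Tlr6 stretches lie inside the GENCODE spans of their genes (Tlr3 at 45395665 to 45411080, Tlr6 at 64952031 to 64960097). They precede a RefSeq start but are not upstream of the whole gene. A match is a description of these letters and not a measured binding site.

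Between genes, levels were compared per kilobase of merged exon. In untreated liver Unc93b1 was the most abundant member at 12.2 ± 1.19 CPM per kilobase (SD, n = 3). Tlr5 (1.04 ± 0.612) and Tlr3 (0.991 ± 0.192) followed and overlapped each other. Tlr2, Tlr13, Tlr1, Tlr7, Tlr8, Tlr6 and Tlr9 came next in that order, each overlapping its neighbour. Tlr12, which is not a member and is left out of this order and of the sums, stood above Tlr5 at 4.37 ± 2.42. With LPS, Tlr2 led at 140 ± 5.67 CPM per kilobase. Tlr3 (31.7 ± 2.20) and Unc93b1 (30.6 ± 7.99) came next and overlapped, and no other member exceeded 1.07 in any library. The sum of the 9 receptors was 3.74 to 4.78 CPM per kilobase untreated and 166 to 181 with LPS. Tlr2 made up 10.2% to 17.3% of that sum before LPS and 79.9% to 80.7% after it. Tlr3 made up 19.2% to 26.0% before and 17.6% to 18.4% after. Unc93b1 stood at 4.37 to 6.92 times the summed level of the endosomal receptors untreated and at 0.720 to 1.31 times with LPS. That sum was mostly Tlr3 with LPS, at 29.2 to 33.1 of 30.4 to 34.7 CPM per kilobase.

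**Figure D2:**
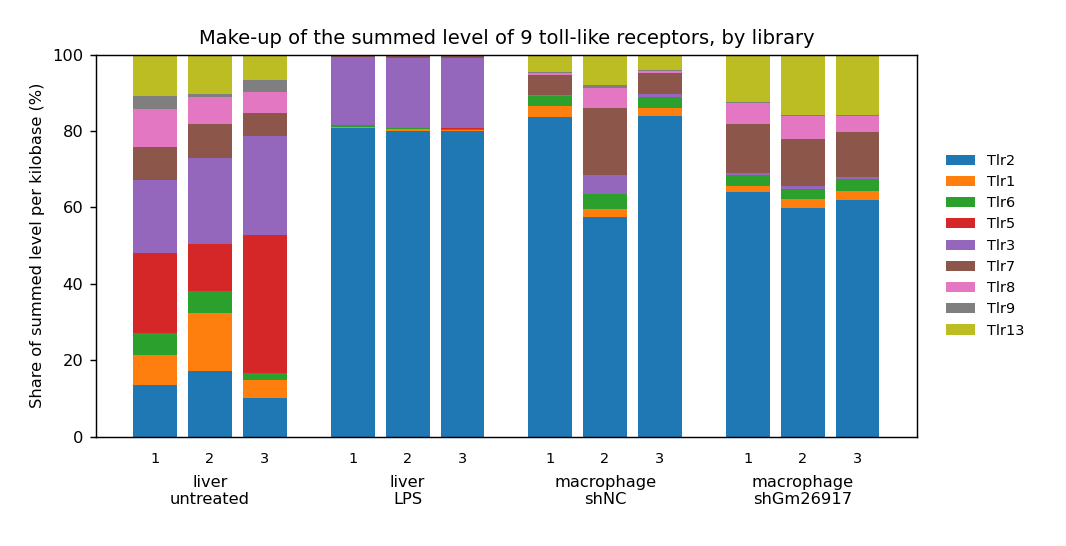
Share of each receptor in the summed level per kilobase of the 9 receptors, in percent, for each of the 12 libraries (numbers are replicates). Tlr2 takes 79.9% to 80.7% in LPS liver. In its Tlr2 share alone, shNC replicate 2 (57.4%) lies nearer the shGm26917 libraries than the other shNC libraries do.

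The other genes of the pathway, grouped in lists by function, changed unevenly in liver. Of 25 adaptors, kinases and transcription factors tested, 14 rose and 11 were not called (median log2 fold change 0.79, against -0.06 over all tested genes). The 4 with the greatest change were Ikbke, a kinase upstream of interferon regulatory factors (6.04), Irf7 (4.23), the shared adaptor Myd88 (4.0) and the adaptor-like Sarm1 (2.73). Ticam1, the adaptor of Tlr3 (chosen after its values were seen), rose from 14.6 ± 1.36 to 23.3 ± 5.57 CPM (log2 fold change 0.68, adjusted p = 0.0296). Of 11 inhibitors, 7 rose and 2 fell (median 0.81), led by Socs1 (8.62), Tnfaip3 (7.24), the pseudokinase Irak3 (4.88) and Tnip1 (4.02). Of 14 co-receptors and ligand-handling genes, 3 rose and 1 fell (median 0.02). Cd14, a co-receptor of Tlr2 and Tlr4, rose by 5.92 and the LPS-binding protein gene Lbp by 2.08. Pld4, an exonuclease that degrades ligands of Tlr9 and Tlr7, changed by -1.26 and Grn, a CpG DNA cofactor, by 0.59.

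Of 14 genes whose products fold, sort and cleave the receptors, 9 were not called, 1 rose and 4 fell (median -0.18). Slc15a4, an endolysosomal transporter needed for Tlr7 and Tlr9 signalling, fell from 25.7 ± 2.82 to 6.23 ± 0.549 CPM (log2 fold change -2.04, adjusted p = 5.98e-05). The small GTPase gene Rab7b changed by -1.5 and Cnpy4 by -0.93, while Hsp90b1, the chaperone gp96 on which most of the receptors depend, rose by 1.01. Among 12 sensors outside the family, 10 rose and 1 fell (median 3.11), with Zbp1 (4.56), the DNA sensor Cgas (4.31), Nod2 (4.12) and Dhx58 (3.77) ahead.

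In macrophages the comparison asked which transcripts differed between the 2 hairpins after LPS. Tlr13, the sensor of bacterial 23S ribosomal RNA, was higher with the Gm26917 hairpin. It stood at 110, 140 and 111 CPM in shNC and at 256, 258 and 246 CPM in shGm26917 libraries. The shGm26917 values lay close together and well above the controls. The rise was 2.10-fold (log2 fold change 1.07, SE 0.14, adjusted p = 0.00508), and without shNC replicate 2 it was 1.18 (SE 0.11, adjusted p = 0.000278).

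With all 6 libraries Tlr13 was the 1 member of 9 tested that edgeR called, and 0 were called lower. At an unadjusted p under 0.05, 2 members were lower. DESeq2 called 2 members lower, with 1976 higher and 2026 lower genes in all. By edgeR, 23.7% of all 12876 genes tested were called, 12.6% higher and 11.1% lower. Groups did not overlap for 2 of the 9 members, Tlr13 and Tlr6, against 45.9% of all tested genes. Without shNC replicate 2, 4 members were called higher (Tlr7, Tlr8, Tlr13 and Unc93b1) and 2 lower (Tlr1 and Tlr2), while 39.6% of all genes were called, 20.5% higher and 19.1% lower. Tlr5 had 2 counts in the shNC and 0 in the shGm26917 libraries and was not tested. Scaling by library totals shifted the median of all genes by 0.29 on the log2 scale.

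Tlr8 was split within the shNC group. It stood at 8.91, 78.4 and 10.6 CPM in shNC replicates 1, 2 and 3 and at 93.7, 83.1 and 54.4 CPM with shGm26917. shNC replicate 2 lay inside the shGm26917 range, and the other 2 controls lay far below it. The log2 fold change was 1.24 (SE 0.82, adjusted p = 0.308) with all libraries and 2.97 (SE 0.25, adjusted p = 2e-04) without that library. Tlr7 stood at 120, 292 and 145 CPM with shNC and 250, 193 and 175 CPM with shGm26917. Here shNC replicate 2 was the highest of all 6 libraries, and the other controls lay below every shGm26917 value. Tlr7 had a log2 fold change of 0.15 (SE 0.34, adjusted p = 0.779) with all libraries and of 0.62 (SE 0.18, adjusted p = 0.0267) without shNC replicate 2.

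Unc93b1 also had its highest control in that library, with 321, 570 and 367 CPM in shNC and 528, 630 and 557 CPM in shGm26917. Its log2 fold change was 0.45 (SE 0.24, adjusted p = 0.21), and 0.72 (SE 0.14, adjusted p = 0.00596) without shNC replicate 2. Tlr9 was low throughout, at 4.89, 9.32 and 3.65 CPM in shNC and 1.78, 4.33 and 1.81 CPM in shGm26917. The groups overlapped (log2 fold change -1.17, SE 0.50, adjusted p = 0.132), and without shNC replicate 2 the log2 fold change was -0.71 (SE 0.42, adjusted p = 0.22).

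Tlr3 was high in 1 control library. It stood at 11.5, 106 and 22.8 CPM in shNC and at 13.7, 14.3 and 12.2 CPM with shGm26917. The log2 fold change of -1.81 (SE 0.76, adjusted p = 0.131) became -0.37 (SE 0.27, adjusted p = 0.299) without shNC replicate 2. Of the interferon-induced sensors, Zbp1 stood at 115, 727 and 283 CPM and Ifih1 at 154, 413 and 293 CPM in the same control libraries. The order of the controls was that of Tlr3. With shGm26917, Zbp1 stood at 34.3, 29.3 and 28.2 CPM and Ifih1 at 36.7, 33.5 and 32.3 CPM. These values lay below every control, whereas those of Tlr3 overlapped its controls. Without shNC replicate 2 the log2 fold changes were -2.72 for Zbp1 and -2.73 for Ifih1. Whether the difference of that library in interferon-induced genes bears on Tlr3 was not tested.

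The lipopeptide receptors Tlr2, Tlr1 and Tlr6 had lower means with the Gm26917 hairpin, and edgeR called none of them with all libraries in the fit. Tlr2 had 1410, 706 and 1590 CPM in shNC and 919, 693 and 678 CPM in shGm26917. Its lowest control, replicate 2, lay among the shGm26917 values. The log2 fold change was -0.70 (SE 0.32, adjusted p = 0.157), and -0.99 (SE 0.17, adjusted p = 0.00357) without that library. Tlr1 had 49.3, 30.5 and 46.8 CPM in shNC and 23.7, 32.0 and 26.7 CPM in shGm26917 (log2 fold change -0.62, SE 0.21, adjusted p = 0.0769), with overlap. DESeq2 called it lower (-0.64, adjusted p = 0.0395). Without shNC replicate 2 it was -0.82 (SE 0.14, adjusted p = 0.00309). Tlr6 had 54.5, 59.4 and 65.5 CPM in shNC and 53.5, 38.1 and 43.3 CPM in shGm26917. These did not overlap but came close (log2 fold change -0.41, SE 0.15, adjusted p = 0.0962), and the call was also absent without shNC replicate 2 (-0.43, adjusted p = 0.0673). Tlr4 had 173, 184 and 181 CPM in shNC and 300, 203 and 215 CPM in shGm26917, every shGm26917 value above every control (log2 fold change 0.42, SE 0.17, adjusted p = 0.129), and did not pass without shNC replicate 2 either (0.42, adjusted p = 0.104).

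**Figure D3:**
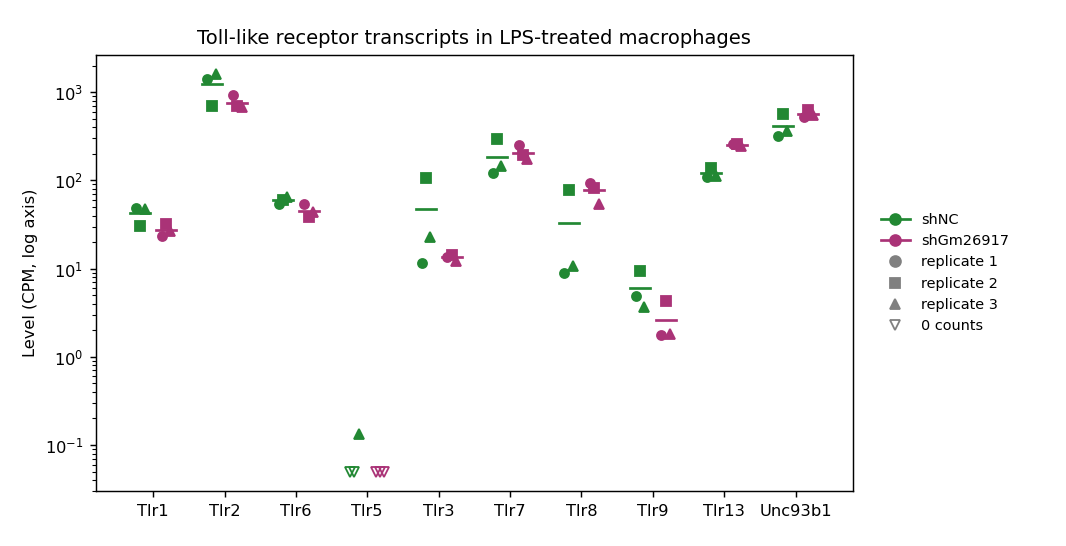
Level of each member in the 6 macrophage libraries, in CPM on a log axis. Symbols mark the replicates, bars the means of 3 libraries and open triangles libraries with 0 counts. shNC replicate 2 (squares) lies away from the other controls for Tlr2, Tlr3, Tlr7 and Tlr8, and Tlr13 separates the groups.

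**Figure D4:**
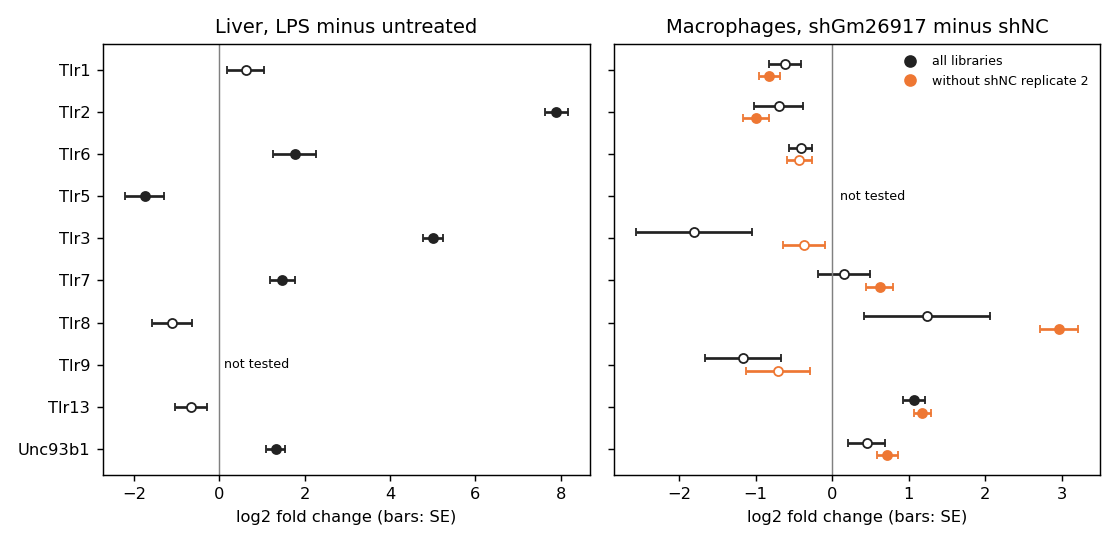
Log2 fold changes with their SE in liver (LPS minus untreated) and macrophages (shGm26917 minus shNC), filled where the adjusted p was under 0.05. In macrophages black shows all libraries and orange the fit without shNC replicate 2, where Tlr8 moves from 1.24 to 2.97 and Tlr3 from -1.81 to -0.37.

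The stretch upstream of Tlr13 (RefSeq, GRCm38.p6, chrX:106143025-106143203, plus strand) is shown as that of the member called in macrophages. It held no match to the kappaB or interferon element forms, nor to GAGGAAGT (a PU.1 form) or TGANTCA (an AP-1 form), which occurred in 2.44% and 6.75% of all windows. The absence says only that these letters are not in this window.
Tlr13: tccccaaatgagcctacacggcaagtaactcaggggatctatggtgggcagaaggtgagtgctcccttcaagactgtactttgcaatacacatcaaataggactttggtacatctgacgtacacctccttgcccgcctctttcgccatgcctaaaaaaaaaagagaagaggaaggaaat

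Per kilobase of exon, Tlr2 led in every macrophage library and Unc93b1 came next (410 ± 155 and 138 ± 43.7 CPM per kilobase in shNC, 253 ± 44.8 and 189 ± 17.3 in shGm26917). In shNC the order was then Tlr7, Tlr13, Tlr6, Tlr1, Tlr8, Tlr3 and Tlr9, of which Tlr13 and Tlr6 alone were neighbours without overlap. In shGm26917 it was Tlr13 (58.8 ± 1.51) and Tlr7 (50.5 ± 9.55), which overlapped, and then Tlr8, Tlr6, Tlr1, Tlr3 and Tlr9, each separate from its neighbours. Tlr2 made up 83.8%, 57.4% and 83.9% of the sum of the 9 receptors in shNC and 64.0%, 59.8% and 62.0% in shGm26917. Tlr13 made up 4.58%, 7.97% and 4.10% in shNC and 12.5%, 15.6% and 15.7% in shGm26917. The ratio of Tlr7 to Tlr8 was 11.9, 3.27 and 12.1 in shNC and 2.34, 2.05 and 2.83 in shGm26917.

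LPS liver and LPS control macrophages are set beside each other without a test, since the tissues were scaled apart. They differed in which of the member receptors came second to Tlr2. Tlr3 stood at 31.7 CPM per kilobase in LPS liver and at 2.21, 20.5 and 4.38 in the shNC libraries. Tlr7 stood at 0.949 in LPS liver and 45.5 in shNC macrophages. Tlr13 stood at 0.254 and 28.0. Tlr4, which is not a member and is left out of the order, stood at 0.330 and 32.3. In shNC replicate 1 Tlr4 (31.1) lay above Tlr7 (29.5). Tlr5 was detected in every liver library but had 2 counts over all 6 macrophage libraries, and Tlr12 had 0, which allows up to 0.0674 CPM over the shNC group (3 counts).

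Among the other pathway genes in macrophages, the inhibitors and the sensors outside the family had the lowest medians. Of 12 inhibitors, 5 fell and 7 were not called (median log2 fold change -0.93, against 0 over all tested genes). Tnfaip3 (-2.68), Socs1 (-2.44), Tnip1 (-1.78) and Irak3 (-1.31) changed most. Of 12 other sensors, 8 fell and 4 were not called (median -1.21), among them Zbp1 (-3.61), Ifih1 (-3.07), Dhx58 (-2.89) and Nlrp3 (-2.78). Without shNC replicate 2, Zbp1 changed by -2.72 and Dhx58 by -2.15. Without shNC replicate 2, 6 inhibitors fell and 2 rose (median -0.51), and 8 sensors fell and 1 rose (median -0.85).

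Of 25 adaptors, kinases and transcription factors, 2 rose and 6 fell (median -0.41), and without shNC replicate 2 4 rose and 11 fell. Irf7 changed by -5.13 (-3.22 without that library), the ubiquitin ligase gene Peli1 by -2.10 and Tab2, which links Traf6 to the kinase Map3k7, by -1.11, while Ticam2, a bridging adaptor of Tlr4, rose by 2.11. Myd88 and Ticam1 were again chosen after their values were seen. Myd88 fell from 169 ± 24.3 to 101 ± 2.20 CPM (log2 fold change -0.75, adjusted p = 0.0128). Ticam1 fell as well, from 36.7 ± 5.34 to 22.1 ± 3.07 CPM (log2 fold change -0.73, adjusted p = 0.0218).

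Of 13 co-receptors and ligand-handling genes, 3 rose and 1 fell (median 0.45), and 6 rose and 3 fell without shNC replicate 2. Cd14 fell from 8180 ± 4240 to 1790 ± 419 CPM (log2 fold change -2.19, adjusted p = 0.0182). Dnase2a, which digests DNA in lysosomes, rose by 0.82, the exonuclease gene Pld3 by 0.64 and Hmgb1 by 0.34 (without shNC replicate 2 Hmgb1 was not called, at 0.29 and an adjusted p of 0.0505). Of 14 genes of folding, sorting and cleavage, 3 rose and 2 fell (median 0.38), and 9 rose and 2 fell without shNC replicate 2. The cathepsin genes Ctsk and Ctss, whose products cleave endosomal receptors, rose by 2.46 and 0.92. Hgs, an endosomal sorting gene, changed by -0.80 and Hsp90b1 by -0.76.

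**Figure D5:**
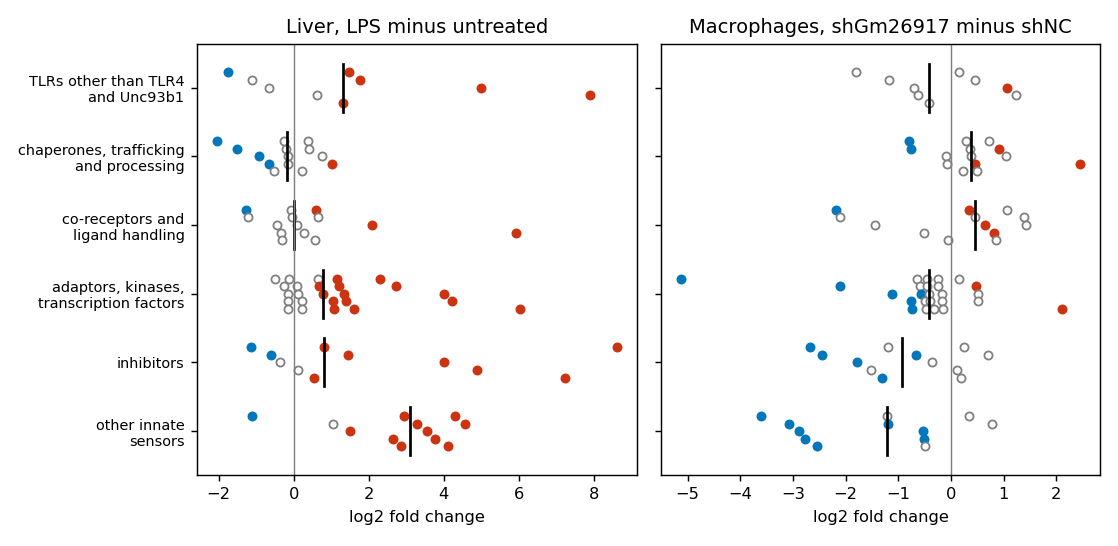
Log2 fold changes of the tested members and of 5 lists of related genes in liver and macrophages. Red and blue points were called higher and lower, open points were not called, and black bars are medians. In liver the other sensors have a median of 3.11, and in macrophages -1.21.

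Some markers of the macrophages themselves differed between the hairpins. Of 8 peritoneal macrophage markers, Alox15 alone was called, as higher (104, 12.8 and 109 CPM in shNC, 588, 1240 and 824 CPM in shGm26917), and the sums overlapped (1980 to 3060 CPM and 2460 to 3240 CPM). Without shNC replicate 2, 2 of them were higher and 1 lower. Of 9 monocyte and macrophage markers tested, 3 were higher (Csf1r, Cd68 and Lyz2), 1 was lower (Ly6c2) and 5 were not called. The sum of all 10 was 5850 to 10100 CPM in shNC and 14900 to 24500 CPM in shGm26917, with Lyz2 at 7240, 3100 and 5710 CPM against 9960, 19200 and 15700 CPM. Without shNC replicate 2, 4 were higher and 2 lower.

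Markers of other cells were mixed. The sum of 6 conventional dendritic cell markers was 11.3 to 13.7 CPM in shNC and 37.9 to 42.9 CPM in shGm26917, with Clec9a higher and Xcr1 lower of 5 tested, and 3 higher and 1 lower without shNC replicate 2. Of 11 neutrophil markers, Retnlg, Ly6g, Stfa2l1 and Ngp had 0 counts, while Csf3r stood at 198 to 411 CPM over the 6 libraries. Of the 5 neutrophil markers tested, Mmp8 was higher (log2 fold change 1.63, adjusted p = 0.0198) and Camp lower (-2.39, adjusted p = 0.018), and without shNC replicate 2, 2 were higher and 2 lower. S100a8 stood at 193 CPM in shNC replicate 2 and at 23.2 and 21.7 CPM in the other controls. In the same library the stellate cell, fibroblast and mesothelial markers summed to 25.9 CPM against 2.34 and 1.82 CPM in the other controls, and the endothelial markers to 24.2 CPM against 8.78 and 6.48 CPM. B cell markers summed to 85.7 to 196 CPM in shNC and 85.2 to 191 CPM in shGm26917, and T and NK cell markers stayed at or below 1.82 CPM. The part of these differences in the receptor changes was not tested.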

How the data were processed

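Liver and peritoneal macrophage RNA was compared within each tissue. The deposited values were whole-number counts of reads for each Ensembl gene ID, 1 table per library, per the file headers. STAR, featureCounts 1.6.3 and the mm10 build are named, per the submitters' processing notes. The sources used here do not give the annotation release, strand setting or handling of multi-mapping reads. Macrophage column headers carry the word combined, which is not explained there. Groups came from the sample titles.

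Each tissue was fitted alone in edgeR 4.0.16 (R 4.3.3, limma 3.58.1) with group as the factor, filterByExpr, TMM and the 2-sided quasi-likelihood test across all genes. P-values were adjusted by Benjamini-Hochberg and called under 0.05. The procedure was tested on simulated data. SE is the absolute log2 fold change over the square root of F. Exon lengths and positions came from GENCODE M21 (GRCm38), and symbols from a table of gene names. Alternatives were DESeq2 1.42.0, library totals, other filters, 12 libraries in 1 fit, a replicate block and leaving out each library. The counts of the lists without shNC replicate 2 were chosen after seeing the data. So was the choice to print the test of each member without that library. The p-values of that run come from the same libraries and are not separate evidence. Markers of other cells are given beside the results. Named genes were the members, Tlr4, Tlr11, Tlr12 and, in each list and comparison, up to 4 called genes of greatest absolute change. Ticam1 in both tissues and Myd88 in macrophages were added outside this rule. The gene most like each member was that of highest correlation. The members and lists were chosen with earlier results of these data known.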

Additional observations from a re-analysis of the deposited data

How the results depend on the processing

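In liver, the counts of members called higher (5) and lower (1) were the same with DESeq2, without a filter on low counts, with a filter of 1 CPM and with the replicate block. Library totals gave 4 higher and 3 lower members. All 12 libraries in 1 fit gave 5 higher and 2 lower members, with 3117 higher and 3733 lower genes. Library totals also gave 1943 higher and 5305 lower genes in place of 3227 and 3060. Leaving out 1 library at a time gave 4 to 5 higher and 0 to 1 lower members, with 2651 to 3237 higher and 2187 to 2990 lower genes. In macrophages, members called lower (0) numbered 2 with DESeq2 (Tlr1 and Tlr3), with 1976 higher and 2026 lower genes in all. Library totals gave 2 higher members in place of 1, with 3135 higher and 794 lower genes in place of 1618 and 1431. Leaving out 1 library gave 1 to 4 higher and 0 to 2 lower members, with 479 to 2715 higher and 360 to 2521 lower genes. The lowest of these counts of genes came without shGm26917 replicate 2 and the highest without shNC replicate 2. Tlr7, not called, ranged from -0.10 to 0.62 on the log2 scale and changed sign without shNC replicate 1 or 3 or shGm26917 replicate 1. Tlr13 stayed higher and called in every alternative run. The cause of these shifts was not tested.

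The replicate numbers of the titles were tried as a replicate block. Deviations of same-numbered libraries correlated at 0.12, 0.05 and -0.08 in liver and at -0.04, 0.24 and 0.18 in macrophages. Not every library correlated best with its own number. With so few libraries, these correlations cannot show whether same-numbered libraries share an animal or a batch. The block gave 5 higher and 1 lower members in liver, with 3002 higher and 2752 lower genes. In macrophages it gave 1 higher and 1 lower (Tlr9, adjusted p = 0.0315), with 1424 higher and 1170 lower genes. Tlr9 in liver and Tlr5 in macrophages had too few counts for the test.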

Other observations

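Across the 12 libraries, the genes whose log2 CPM followed each member most closely differed from receptor to receptor. The measure was Pearson's r over 12 libraries among 11400 genes tested in both tissues. The 12 points are 4 groups in 2 tissues and share their libraries, so r mostly follows the differences between groups and is given as a description. Tlr2 was nearest to Relb, an NF-kB subunit (r = 0.989), and Tlr3 to Gbp9, an interferon-induced GTPase (0.992). Tlr7 was nearest to Arhgap30 (0.996) and Tlr13 to Prkcb, a protein kinase C (0.996). Tlr6 was nearest to Mllt6 (0.993), Tlr1 to Atf6b (0.988), Tlr8 to Serpinb8 (0.987) and Unc93b1 to Esyt1 (0.988). Tlr5 and Tlr9 were not tested in both tissues and had no such gene.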
